A study of Mus musculus with 2 samples.

Results

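The genes described here belong to the oxidative stress response that the transcription factor NRF2 controls. They were matched by symbol in the deposited read counts, and all 8 listed members were found among 43280 gene symbols: Nfe2l2, Keap1, Nqo1, Srxn1, Txnrd1, Slc7a11, Osgin1 and G6pdx. The counts came from 1 library of mature hepatocytes (MHs) and 1 library of small hepatocytes (SHs). Both were freshly isolated by collagenase perfusion from livers of C57BL6 mice, given as 20 weeks old in the sample labels. This age is above the range that the methods state for the mice of the study. No genetic change or treatment was given for either group. MHs were the cells pelleted by a slow centrifugation and were not sorted. SHs, described as intrinsic hepatocyte progenitors, were pelleted from the supernatant at a higher speed. Percoll was used to remove dead cells from both fractions. Only SHs were then sorted by FACS, as ICAM-1+ cells that were negative for CD31, CD45 and EpCAM. The comparison asks how SHs differ from MHs in this pathway.

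NRF2, the product of Nfe2l2, is a transcription factor that is held at a low level in unstressed cells, because KEAP1 binds it and presents it to a CUL3 ubiquitin ligase for degradation. Oxidants and electrophiles modify KEAP1, NRF2 then accumulates, pairs with a small MAF protein and binds antioxidant response elements in the control regions of its target genes. In hepatocytes these targets serve detoxification, thiol repair, glutathione synthesis and the supply of NADPH.

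The promoters of the members were searched first, since the element is what the pathway's targets share. RefSeq promoter sequences of the GRCm38.p6 build, from 250 bases before to 50 bases after each annotated start, were available for all 8 members, in 10 promoters. The core of the element, TGACNNNGC, was searched on both strands, where the other strand reads GCNNNGTCA. It was found in 4 members, Nfe2l2, Srxn1, Txnrd1 and G6pdx, whereas 14.0% of all 27025 genes in that table held it. Among promoters, 4 of the 10 held a match, against 12.4% of all 32851. With only the 250 bases before the start, the count was 3 members, against 11.5% of all genes, because the match of Srxn1 lies after the start. No other sequence feature was searched. The matches are shown with 10 bases on either side because the core is what NRF2 and its partner are known to recognise, and the capitals mark it.
Nfe2l2: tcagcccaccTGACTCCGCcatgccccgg
Srxn1: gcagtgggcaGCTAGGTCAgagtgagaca
Txnrd1: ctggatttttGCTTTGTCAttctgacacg
G6pdx: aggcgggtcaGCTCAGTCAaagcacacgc

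Each sequence is written 5′ to 3′ on the strand of its gene. The core lies on that strand in Nfe2l2 and on the other strand in the remaining genes. The window of Nfe2l2 (chr2:75704885-75704913, minus strand) begins its core 240 bases before the start, and in the GENCODE M21 annotation it overlaps an exon of the neighbouring gene E030042O20Rik. The window of Srxn1 (chr2:152105542-152105570, plus strand) has its core from base 29 of the transcript, in the 5′ UTR. The window of Txnrd1 (chr10:82859104-82859132, plus strand) has its core 92 bases before the second of 3 annotated starts, inside the span of the longer Txnrd1 transcripts and outside any exon. The window of G6pdx (chrX:74428919-74428947, minus strand) has its core 57 bases before the RefSeq start, in a stretch that GENCODE M21 annotates as the UTR of a longer G6pdx transcript. None of the 4 cores held the related AP-1 motif TGACTCA. No match was found in these windows of Keap1, Nqo1, Slc7a11 and Osgin1, which says nothing of elements farther from the start. A match is a description of the sequence and does not show that NRF2 binds there.

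**Figure D1:**
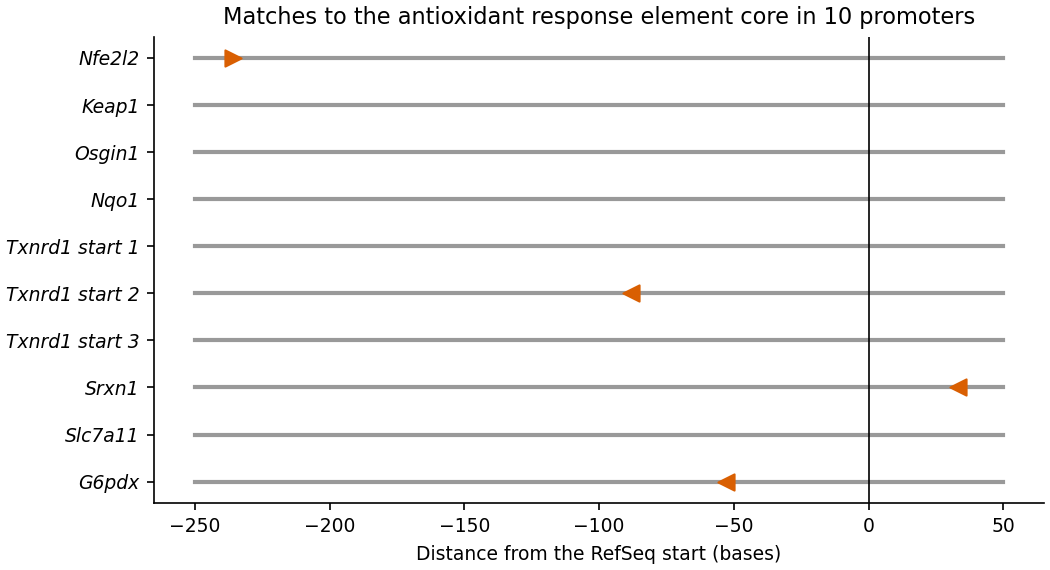
Positions of matches to the antioxidant response element core in the 10 RefSeq promoters of the 8 members. Each grey line is a promoter, the x axis is the distance from the annotated start in bases, and a triangle points right where the core lies on the strand of the gene and left where it lies on the other strand. Matches are seen in Nfe2l2, Srxn1, G6pdx and the second start of Txnrd1.

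Counted reads amounted to 16979136 for MHs and 42356444 for SHs. Values are given as reads per 1000000 counted reads (RPM) of the same library, and the ratio as the log2 of SHs over MHs with 0.5 reads added to each count. Neither condition has a replicate and nothing could be tested between them, so the 95% intervals cover counting error only. Hepatocyte markers were near even, with a median log2 ratio of 0.03 over 10 genes including Alb. The zone markers were not, since all 12 pericentral markers were lower in SHs (median log2 ratio -1.83) and 11 of 12 periportal markers had a ratio over 0 (median 0.47).

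None of the members was called lower or higher in SHs. A call needed a 1.5-fold difference and an interval that did not cross 0. Of the 8 members, 7 had at least 10 reads over both libraries and entered this count, and Slc7a11 did not. By the same rule 6.2% of all 15521 genes with at least 10 reads were called lower and 3.5% were called higher. The log2 ratios of the 7 members lay between 0.02 and 0.54 with a median of 0.16, whereas the median of all 15521 genes was 0.02. All 7 ratios were over 0, as were those of 8064 of the 15521 genes. Intervals lay wholly over 0 for 3 members, Srxn1, Txnrd1 and Osgin1, and wholly under 0 for 0. Among all genes with at least 10 reads the interval was wholly over 0 for 16.8% and wholly under 0 for 15.5%. A gene with more reads has a narrower interval, and among the 9608 genes with at least 200 reads these shares were 23.2% and 16.9%, beside 3 and 0 of the 5 members with that many reads.

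**Figure D2:**
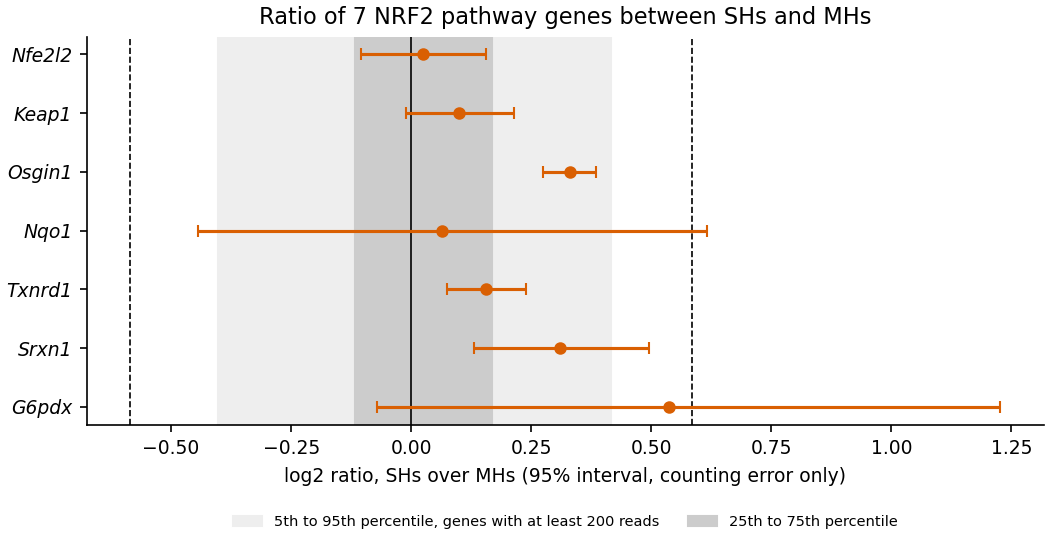
Log2 ratio of SHs over MHs (x axis) for the 7 members with at least 10 reads; points are ratios, bars are 95% intervals of counting error, the shaded bands are percentiles of all genes with at least 200 reads, and the dashed lines mark 1.5-fold. Every point lies to the right of 0 and inside the dashed lines, and the bars of Nqo1 and G6pdx are the widest.

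Nfe2l2, which encodes NRF2 itself (chromosome 2, 75675513 to 75704641), had 674 reads in the MH library and 1710 in the SH library. This gave 39.7 and 40.4 RPM and a log2 ratio near 0, at 0.02 (95% interval -0.11 to 0.16). The level of the transcription factor's mRNA was thus close to even in these libraries, and the upper end of the counting interval was 1.11-fold. Variation between animals and preparations was not measured, so this is no limit on the difference between the cell types. NRF2 is controlled mainly through the stability of the protein, which read counts do not measure.

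Keap1, the sensor that marks NRF2 for degradation (chromosome 9, 21229730 to 21239361), had 878 reads in the MH library and 2349 in the SH library. In RPM the levels were 51.7 and 55.5. The log2 ratio was 0.10, and its interval of -0.01 to 0.21 reached just under 0. When the 10 genes with the most reads were left out of the library totals, the interval of Keap1 lay over 0 and the number of such members was 4. Factor and sensor therefore had ratios whose intervals overlapped.

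Among the targets, Osgin1 had the most reads. It encodes an oxidative stress-induced growth inhibitor and lies on chromosome 8 (119434124 to 119446256). It had 3498 reads in the MH library and 10971 in the SH library, which were 206.0 and 259.0 RPM. Its log2 ratio of 0.33 (0.28 to 0.39) was higher than those of 91.5% of the genes with at least 200 reads. The interval of Osgin1 lay wholly above those of Nfe2l2, Keap1 and Txnrd1, and these were the only 3 of the 21 pairs of members whose intervals did not overlap.

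The intervals of both thiol repair enzymes lay over 0, although neither was called. Srxn1 encodes sulfiredoxin, which restores peroxiredoxins that have been over-oxidized by peroxide (chromosome 2, 152105516 to 152111376). It had 332 reads in the MH library and 1028 in the SH library, 19.6 and 24.3 RPM, a log2 ratio of 0.31 (0.13 to 0.49) that exceeded those of 90.2% of the genes with at least 200 reads. Txnrd1 encodes the cytosolic thioredoxin reductase, a selenoprotein that uses NADPH to reduce thioredoxin (chromosome 10, 82833951 to 82897712). It had 1628 reads in the MH library and 4527 in the SH library, 95.9 and 107 RPM, a log2 ratio of 0.16 (0.07 to 0.24). Txnrd1 overlaps 3 annotated genes that are not among the counted symbols, of which Eid3 lies on the same strand, so reads of Eid3 may be included in its count. The intervals of its paralogs included 0. Txnrd2, the mitochondrial reductase, had 27.6 RPM in the MH library and 27.8 in the SH library (log2 ratio 0.01, interval -0.15 to 0.17), and Txnrd3 had 4.59 and 4.32 RPM (-0.09, -0.48 to 0.31).

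Nqo1 and G6pdx were measured with few reads, and their ratios are less certain. Nqo1 encodes a quinone reductase that is widely used as a readout of NRF2 activity (chromosome 8, 107388225 to 107403206). It had 43 reads in the MH library and 113 in the SH library, 2.53 and 2.67 RPM, a log2 ratio of 0.06 with an interval of -0.44 to 0.62. At this depth the counting interval of Nqo1 therefore covered ratios from 0.735-fold to 1.53-fold. Its paralog Nqo2 was far more abundant, with 73.0 RPM in the MH library and 74.1 in the SH library, and its log2 ratio was 0.02 (-0.07 to 0.12).

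G6pdx encodes glucose-6-phosphate dehydrogenase, the first enzyme of the pentose phosphate pathway and a source of NADPH (X chromosome, 74409483 to 74429194). It had 27 reads in the MH library and 99 in the SH library, 1.59 and 2.34 RPM. Its log2 ratio of 0.54 was the highest of the 7 members, but the interval of -0.07 to 1.23 included 0. G6pd2, an intronless copy of the gene, had 3 reads in the MH library and 0 in the SH library, both at or under the smallest level read here, which was 3 reads. Summed with G6pd2, the log2 ratio was 0.39 (-0.20 to 1.04). G6pdx overlaps Ikbkg on the opposite strand, with 1122 reads in the MH library and 2312 in the SH library, and the sources used here do not state whether counting used the strand.

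Slc7a11, the cystine importer of the cell membrane (chromosome 3, 49892526 to 50443614), had 0 reads in the MH library and 3 in the SH library. The exact 95% Poisson interval of a count of 0 reaches 0.217 RPM in MHs, and 3 reads were 0.0708 RPM in SHs, so no ratio is given. Its partner chain Slc3a2, which also serves other amino acid transporters, had 20.0 RPM in the MH library and 20.8 in the SH library (log2 ratio 0.05, interval -0.13 to 0.24). Hepatocytes can make cysteine from methionine through transsulfuration, and the genes of both its enzymes were abundant. Cbs had 702.2 RPM in the MH library and 938.4 in the SH library, and Cth had 460.2 and 540.0 RPM. Their log2 ratios were 0.42 (0.39 to 0.45) and 0.23 (0.19 to 0.27).

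**Figure D3:**
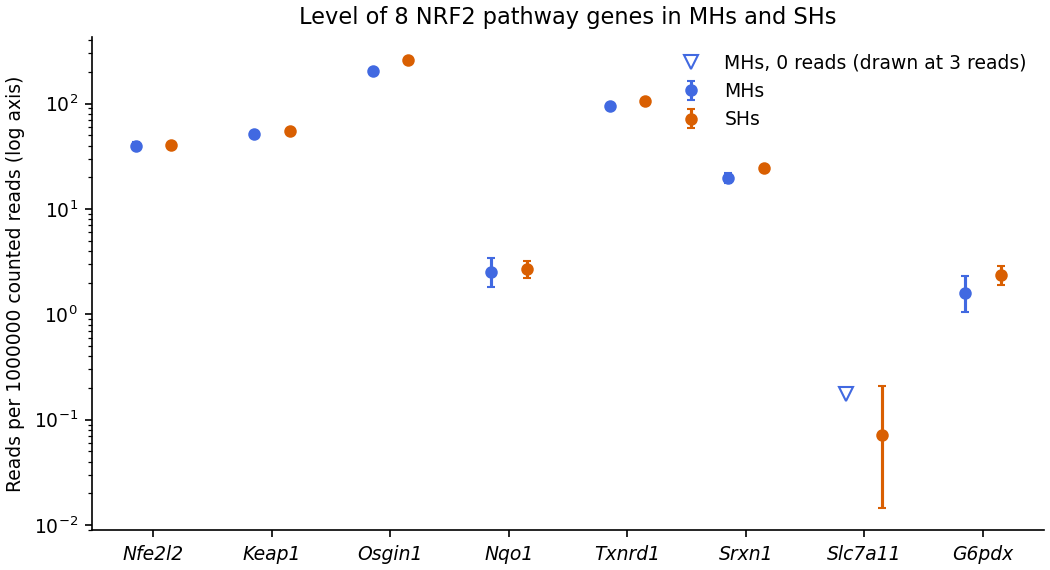
Reads per 1000000 counted reads (y axis, log scale) of the 8 members in MHs and SHs; points are single libraries, bars are exact 95% Poisson intervals, and the open triangle marks Slc7a11 in MHs, with 0 reads, at the level of 3 reads. The members span from under 1 RPM for Slc7a11 to over 200 RPM for Osgin1, while both libraries lie close together for each gene with more than a few reads.

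Divided by exon length, the order of the members was the same in both libraries. Osgin1 had 77.0 reads per kilobase of exon and 1000000 counted reads (RPKM) in MHs and 96.9 in SHs. It was followed by Txnrd1 with 13.5 and 15.1 RPKM, Keap1 with 11.0 and 11.8, Nfe2l2 with 10.5 and 10.6, and Srxn1 with 6.93 and 8.61. Nqo1 had 1.63 and 1.72 RPKM and G6pdx 0.516 and 0.759, and Slc7a11 was last. Keap1 and Nfe2l2 were the neighbours that could not be told apart in MHs, where their 95% Poisson intervals were 10.3 to 11.8 and 9.68 to 11.3 RPKM. In SHs these intervals did not overlap, with 11.3 to 12.3 and 10.1 to 11.2 RPKM. Exon length was the union over all annotated transcripts, so a gene whose long forms are not used is understated.

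Of the other members of the transcription factor family, Nfe2l1 had a level above that of Nfe2l2, with 14.3 RPKM in the MH library and 13.6 in the SH library. The 95% Poisson intervals of their levels did not overlap in either library, and Nfe2l1 had a log2 ratio of -0.07 (-0.16 to 0.03). Nfe2 had 2 reads in the MH library and 13 in the SH library, and Nfe2l3 had 1 and 0.

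The 18 regulators and partners of NRF2 had a median log2 ratio of 0.13. At 1.5-fold 2 were called higher and 1 lower, beside 3.5% and 6.2% of all genes with at least 10 reads. The called genes bind DNA with or instead of NRF2. Maff and Mafk encode small MAF proteins, the partners that NRF2 needs. Maff had 62 reads in the MH library and 308 in the SH library, 3.65 and 7.27 RPM, a log2 ratio of 0.98 (0.60 to 1.41). Mafk had 63 and 273 reads, 3.71 and 6.45 RPM, a ratio of 0.79 (0.40 to 1.22). Mafg, the third small MAF gene and the one with the most reads of the 3, had a ratio of -0.20 (-0.33 to -0.07), so the small MAF genes did not share a direction. Bach2, a repressor that competes for the same elements, was called lower, with 9.60 RPM in the MH library and 6.23 in the SH library and a ratio of -0.62 (-0.91 to -0.33). Its paralog Bach1 had more reads, with 36.3 RPM in the MH library and 40.2 in the SH library. The ratio of Bach1 was 0.15 (0.02 to 0.28) and was not called, so these paralogs did not share a direction. Sqstm1, which encodes the autophagy receptor p62 that sequesters KEAP1, had the most reads of the list and a ratio of 0.07 (0.03 to 0.12). Cul3, the scaffold of the ligase that KEAP1 serves, had a ratio of 0.26 (0.03 to 0.50). Gsk3b, a kinase that promotes a KEAP1-independent degradation of NRF2, had a ratio of -0.13 (-0.29 to 0.04).

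Among 28 further targets in detoxification, glutathione, heme and iron handling, 26 passed the read minimum of 10, with a median log2 ratio of -0.06. The ratio was under 0 for 15 and over 0 for 11, with 3 called lower and 1 higher, beside 6.2% and 3.5% of all genes. Intervals lay wholly under 0 for 13 and wholly over 0 for 6, so these genes did not move as a block. Among all genes with at least 10 reads, those shares were 15.5% under and 16.8% over 0. Among all genes with at least 200 reads, as 24 of these 26 had, they were 16.9% and 23.2%. Both called directions were found among the glutathione transferases. Gsta2 was higher, with 26.4 RPM in the MH library and 41.6 in the SH library, a ratio of 0.65 (0.50 to 0.81). Gstm2 was lower, with 17.8 and 6.87 RPM, a ratio of -1.37 (-1.61 to -1.14), as was Gstm3 at -0.63 (-0.86 to -0.38). Members of these transferase families are close in sequence, and how the counting divided shared reads is not given, so single members are uncertain. Abcc4, an efflux pump, was the other gene called lower, with 13 reads in the MH library and 7 in the SH library. Gstp1 and Cbr1, a carbonyl reductase, had ratios of 0.36 and 0.39 and were not called, nor was Blvrb, a biliverdin reductase, at -0.56. Mgst1, the microsomal transferase and the gene of this list with the most reads, had a ratio of -0.47 (-0.49 to -0.45). Hmox1, the inducible heme oxygenase, had 4.18 RPM in the MH library and 3.26 in the SH library, and its interval, -0.78 to 0.07, included 0.

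None of the genes of glutathione synthesis was called. Gclc and Gclm, the catalytic and modifier subunits of the rate-limiting glutamate-cysteine ligase and well-known NRF2 targets, had ratios of 0.02 (-0.03 to 0.06) and 0.11 (0.04 to 0.18). Gss, the synthetase of the last step, had 48.5 RPM in the MH library and 71.9 in the SH library, a ratio of 0.57 (0.45 to 0.68) just under the size of a call, which it passed when the 10 genes of highest count were left out of the totals. Over the 11 genes of cystine and glutathione metabolism with at least 10 reads, the median was 0.07 and 0 were called. Gpx1, a glutathione peroxidase and the gene of this list with the most reads, had a ratio of 0.12, and Gpx4, which reduces lipid peroxides, had the lowest ratio of the genes with at least 200 reads, -0.11 (-0.19 to -0.03). Chac2, which degrades glutathione, was at 0.03.

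Of 17 genes of the thioredoxin system, which include Txnrd1 and Srxn1, 1 was called lower and 0 higher, beside 6.2% and 3.5% of all genes. A ratio over 0 was seen for 11, and the median was 0.10. The called gene was Txnip, an inhibitor that binds thioredoxin, which was lower in SHs with 191.8 RPM in the MH library and 116.4 in the SH library, a ratio of -0.72 (-0.78 to -0.66). Srxn1 had the highest ratio of this list. Msrb1, a methionine sulfoxide reductase, followed at 0.25 and Prdx2, a peroxiredoxin, at 0.22. Prdx1, the peroxiredoxin with the most reads, was at -0.04 and Prdx4, that of the endoplasmic reticulum, at -0.20. Glrx, a glutaredoxin, was at -0.13 (-0.34 to 0.10).

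The 13 genes of NADPH supply had a median of 0.06, and 0 were called. The downstream pentose phosphate enzyme Pgd had a ratio of -0.12 (-0.27 to 0.03), while G6pdx, the first enzyme, had the highest ratio of the list. Me1, the malic enzyme, was at -0.18 (-0.30 to -0.05). H6pd, which makes NADPH in the endoplasmic reticulum, was at -0.15 (-0.19 to -0.11). The folate enzymes Aldh1l1 and Mthfd1 were at 0.42 and 0.27, and Rpe, of the pentose phosphate pathway, was at 0.30. Of the superoxide and peroxide enzymes, Cat, which encodes catalase, was at 0.31 (0.29 to 0.33) and Sod2, the mitochondrial superoxide dismutase, at 0.24 (0.17 to 0.31), while Sod1, the cytosolic form, was at 0.04. The median over 9 genes of that list was 0.09. Its only called gene was Sod3, the extracellular form, beside 6.2% of all genes called lower. Sod3 had 21 reads in the MH library and 1 in the SH library, a log2 ratio of -5.16 (-11.1 to -3.07).

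**Figure D4:**
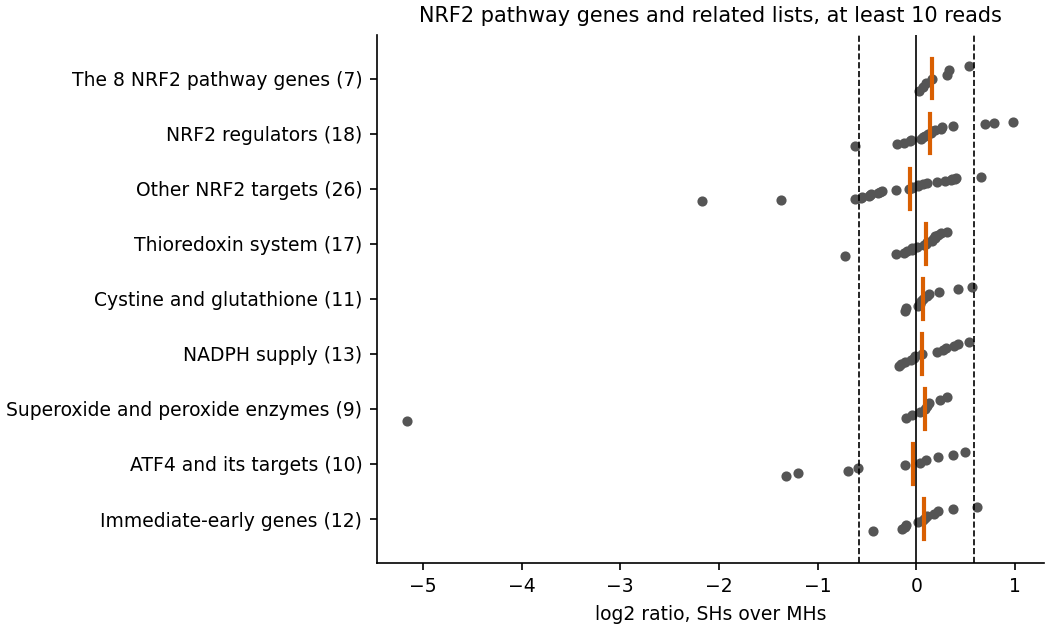
Log2 ratio of SHs over MHs (x axis) for each gene with at least 10 reads in the members and 8 related lists; points are genes, orange lines are list medians, dashed lines mark 1.5-fold, and the number of genes plotted stands after each name. The medians of all 9 lists lie inside the dashed lines, between -0.06 and 0.16, no member lies beyond them, and the point farthest to the left is Sod3.

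Genes that respond to stress through other factors were compared because some of them share targets with NRF2 and because cell isolation itself acts on them. ATF4 also drives Slc7a11. The 10 genes of the ATF4 list with at least 10 reads had a median of -0.04. Of these, 3 were called lower and 0 higher, beside 6.2% and 3.5% of all genes. Atf4 itself was at 0.10 (0.00 to 0.20), and Atf5, the gene of the list with the most reads, was at 0.03. The called genes were Ddit3, a stress-induced transcription factor, at -0.59 (-0.83 to -0.34), Asns, the asparagine synthetase, at -1.20 (-1.90 to -0.50), and Vldlr, with 12 reads in each library. The ratio of Ddit3 was close to the size of a call, and with TMM, with DESeq2's size factors or without the 10 genes of highest count in the totals 2 genes of the list were called lower and Ddit3 was not. Trib3 was at 0.49 and Ddit4 at 0.22, and neither was called. Of 12 immediate-early genes, 1 was called higher, Fos, at 0.61 (0.56 to 0.67), beside 3.5% of all genes. Atf3, whose protein can bind NRF2, was at 0.37 (0.27 to 0.47), and the median of the list was 0.08. Jun, with the most reads, was at 0.18 and Junb at 0.22. The lowest ratios were those of Btg2 at -0.43, Dusp1 at -0.14 and Ier2 at -0.12. The part of cell isolation in the ratios of Osgin1 and Srxn1 was not tested.

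The endothelial, macrophage and stellate cell markers had median log2 ratios of -5.06, -5.06 and -3.09, whereas that of the 4 cholangiocyte markers with at least 10 reads was 0.47. The 10 endothelial markers together had 90.8 RPM in the MH library and 4.65 in the SH library, and 10 of 10 were called lower, with Lyve1 at 0 reads in SHs. Stab2 had the most endothelial reads, 338 in the MH library and 119 in the SH library. The 10 macrophage markers had 22.4 RPM in the MH library and 1.02 in the SH library, with 8 of the 9 with at least 10 reads called lower and Marco at 3 and 0 reads. Cd68 was the 1 not called, and Clec4f, with the most reads, had 92 and 6. The 10 stellate cell markers had 21.0 and 2.36 RPM, with 8 of 8 called lower and 0 markers at 0 reads in SHs. Reln had the most stellate reads, 130 and 64. Cholangiocyte markers had 21.5 and 24.7 RPM in sum, and Cftr and Sctr had 1 read in MHs and 0 in SHs, while Krt19 and Krt7 had 1 read in each library. White blood cell markers had 4.42 and 2.05 RPM in sum, and 2 of the 2 with at least 10 reads were called lower. Lcn2, which is 1 of these 2, held most of the sum in both libraries. It had 56 reads in the MH library and 74 in the SH library, which were 3.30 and 1.75 RPM. Itgax had 6 reads in MHs and 0 in SHs, S100a9 had 0 and 4, and Cd3e and S100a8 were at 0 in both. Of the red blood cell genes, Hbb-bt was at 0 in both libraries, and the other globin genes of the list had 0 or 1 reads in MHs and 5 to 9 in SHs. Alas2 had the most reads of that list, 2008 in the MH library and 5784 in the SH library, which were 118.3 and 136.6 RPM. The part of other cells in the ratios of the members was not tested. In such bulk libraries, fewer cells of a type and less RNA per cell cannot be told apart.

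**Figure D5:**
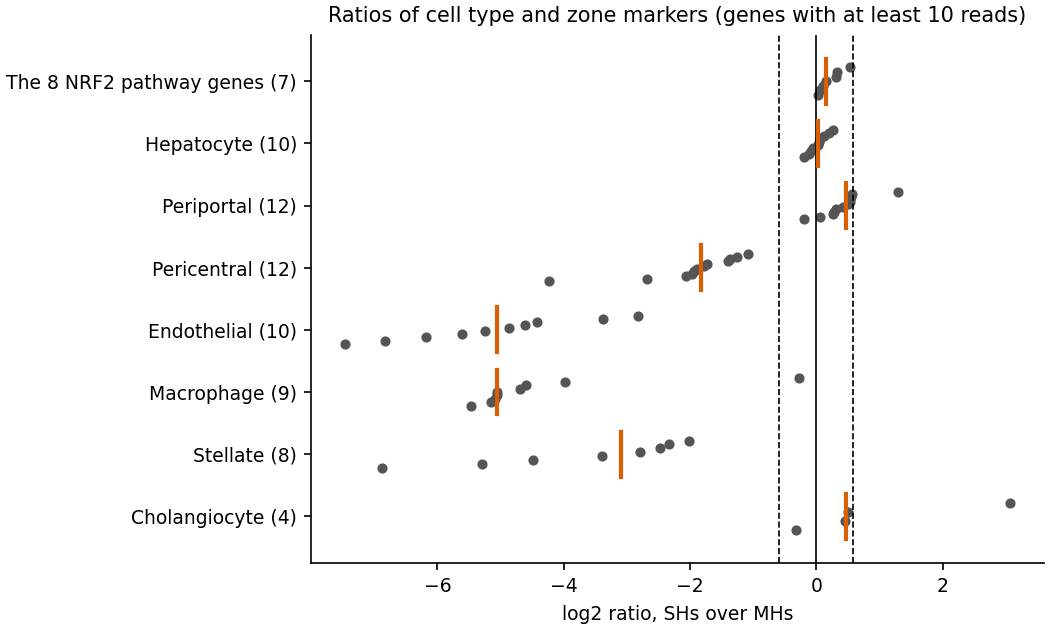
Log2 ratio of SHs over MHs (x axis) for markers of hepatocytes, liver zones and other liver cells with at least 10 reads, beside the NRF2 pathway members; points are genes, orange lines are list medians, dashed lines mark 1.5-fold, and the number of genes plotted stands after each name. The members lie within the spread of the periportal markers, and their median lies between those of the hepatocyte and periportal markers. The pericentral markers lie to the left, and the endothelial, macrophage and stellate markers lie farthest to the left.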

How the data were processed

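Poly(A) RNA of 1 sample each of MHs and SHs was read on an Ion Proton sequencer. For each, the authors deposited raw, whole read counts by gene symbol. In the methods, reads were trimmed and aligned to mm10 in CLC Genomics Workbench, with several hits allowed per read, and expression was given as RPKM. The program and annotation behind the counts are not given in the sources used here. In the methods, the cells for sequencing came from several mice. Neither the methods nor the labels say whether each library pools them.

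RPM, log2 ratios and Clopper-Pearson intervals (95%) were computed in Python 3.11.15 with scipy 1.17.1. No ratio was given where neither library held more than 3 reads. PCR reads without molecular identifiers are not independent molecules, so intervals and that floor cover counting error only. No p-value was computed, because each condition had 1 library. Coordinates and exon lengths came from GENCODE M21 (GRCm38, the mm10 build), which held 39469 of the 43280 symbols, and promoters from RefSeq (GRCm38.p6). The calculation was tested on simulated data with known ratios.

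The members and gene lists were chosen with earlier results of these data known, and the lists share genes. Named were the members, their paralogs and partners, in each other pathway list the gene with most reads and, from 200 reads upwards, the 3 genes at either end of the ratios, and for other cell types the genes at 0 reads in SHs and that with most reads, of which a few are not reported here. Bach1, Gclm, Hmox1, Abcc4, Sod3, Asns, Vldlr, Cd68, S100a9, the globin genes other than Hbb-bt, Krt19, Krt7, Ikbkg and Eid3 were named after their values were seen. Alternatives were scaling by edgeR's TMM (4.0.16), DESeq2's size factors (1.42.0) or a total lacking the 10 genes of highest count, 2 added reads, read minimums of 1 and 200, call thresholds of 2-fold and of 0.32 in log2, G6pdx summed with G6pd2, lists without the members, and shorter promoters.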

Additional observations from a re-analysis of the deposited data

How the results depend on the processing

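No paired analysis was possible because neither group has a second library. Scaling with TMM, with the size factors of DESeq2 or without the 10 genes of highest count shifted every log2 ratio by 0.01, 0.01 and 0.03, and no member left its interval under these or with 2 added reads. Ddit3 was not called lower under any of the 3 other scalings. At a call threshold of 0.32 in log2, 1 member, Osgin1, was called higher. Over all genes, 1487 were called lower and 1143 higher at that threshold, 310 higher at 2-fold, and 202 lower and 179 higher with at least 200 reads. Without the 10 genes of highest count in the totals, 1 cystine and glutathione gene and 2 periportal markers were called higher, and the medians of hepatocyte and periportal markers were 0.059 and 0.50. With at least 200 reads, 0 superoxide and peroxide enzymes, 1 ATF4 gene and 4 endothelial markers were called lower, since fewer genes were counted. With no read minimum beyond 1 read, the cholangiocyte median turned to -0.82 with 1 gene called lower, and the erythroid median was 1.47, since genes with a few reads entered. Depth limits Nqo1, G6pdx and Slc7a11 most. For the changes under other scalings and folds, the cause was not tested.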
